A study of Mus musculus with 6 samples.

Results

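Genes that mark dendritic cells and Langerhans cells were followed in ICAM1-positive and ICAM1-negative cells sorted from the mouse olfactory epithelium. They are Itgax, Flt3, Ccr7, Cd207, Cd209a, Xcr1, Clec9a, Cd83, Cd86 and Cd80, 10 genes chosen by name, and every probe set that the array's annotation gives to 1 of them alone was used. These are 13 of the 45101 probe sets on the array and stand for 9 of the genes. Clec9a had no probe set under its symbol and was not analysed here. Cd86 has 2 probe sets and Cd80 has 4, and probe sets of 1 gene are not replicates.

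The cells came from CD1 mice, an outbred strain, for which the labels give no mutation and no treatment. An antibody to the adhesion protein ICAM1 (CD54) carrying a fluorescent dye split the cells into a positive and a negative sort, and 3 litters taken at postnatal days 21, 22 and 24 each gave both sorts. Each sort of each litter was hybridised to its own array, 3 arrays per group and 6 in all, so a value with n = 3 is over 3 litters and litter cannot be told apart from age. Each sample is a pool of cells chosen by 1 surface protein, in which a lower signal from fewer cells of a type and one from less RNA per cell cannot be told apart.

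Dendritic cells take up antigen, carry it to lymph nodes and present it to T cells together with costimulatory proteins. Langerhans cells are the antigen-presenting cells that live within stratified epithelia such as the epidermis, where Cd207 (langerin) marks them. Macrophages share many surface proteins with dendritic cells, Itgax and Cd86 among them, but depend on the receptor Csf1r, whereas conventional dendritic cells depend on the receptor Flt3. This split does not set macrophages apart from Langerhans cells. Conventional dendritic cells are divided into type 1 cells, which carry Xcr1 and Clec9a, and type 2 cells, many of which carry Cd209a or related lectins. The comparison asks which of these genes were higher in the ICAM1-positive sort and whether they set dendritic cells apart from macrophages.

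The annotation's RefSeq promoter windows (GRCm38.p6, from 250 bases before the gene's start to 50 after it) were on file for 7 of the 10 genes. They were searched on both strands for AGAGGAA, a site form of the myeloid factor Spi1 and other ETS proteins, and for TGANTCA. The latter is a loose form of the AP-1 site, which has C or G in the middle, and allows any base there. The motifs do not overlap each other. AGAGGAA was in 0 of the 7 windows and in 10.4% of 32851 promoter windows, and TGANTCA was in 3 of the 7 and in 7.81% of all. The windows with TGANTCA are shown because 1 gene, Itgax, stood high in ICAM1-positive cells, another, Cd80, was near or below the array median and the third, Cd207, was far below the median in both sorts. Each reads 5′ to 3′ on the gene's strand, with the match in capitals. They lie at chr7:128129300-128129599 (plus strand) for Itgax, chr16:38458683-38458982 (plus strand) for Cd80 and chr6:83677808-83678107 (minus strand) for Cd207.
Itgax: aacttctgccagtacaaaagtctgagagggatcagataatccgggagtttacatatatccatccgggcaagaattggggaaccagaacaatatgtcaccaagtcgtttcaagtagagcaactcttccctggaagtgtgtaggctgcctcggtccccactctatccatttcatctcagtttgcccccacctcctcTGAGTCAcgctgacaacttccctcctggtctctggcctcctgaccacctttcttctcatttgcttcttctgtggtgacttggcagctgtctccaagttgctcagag
Cd80: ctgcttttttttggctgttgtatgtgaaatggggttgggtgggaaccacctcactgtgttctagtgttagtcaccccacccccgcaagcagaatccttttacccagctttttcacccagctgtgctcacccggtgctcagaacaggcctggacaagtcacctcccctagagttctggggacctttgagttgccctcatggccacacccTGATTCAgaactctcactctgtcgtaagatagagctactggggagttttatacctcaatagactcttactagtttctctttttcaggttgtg
Cd207: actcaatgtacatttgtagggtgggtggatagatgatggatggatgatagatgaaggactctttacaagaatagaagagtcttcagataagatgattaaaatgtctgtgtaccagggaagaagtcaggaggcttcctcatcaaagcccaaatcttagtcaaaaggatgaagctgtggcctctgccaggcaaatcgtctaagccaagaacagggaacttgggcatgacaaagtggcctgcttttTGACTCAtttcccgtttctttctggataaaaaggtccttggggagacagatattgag
The match began 56 bases before the start of Itgax, 42 before that of Cd80 and 7 before that of Cd207. Its middle base was G in Itgax and C in Cd207 but T in Cd80, which thus matched only the loose form. The windows of Flt3, Cd209a, Xcr1 and Clec9a held neither motif. A match describes the letters only.

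Values are scaled linear intensities. Median intensity over all probe sets lay between 87.9 and 102.8 on the 6 arrays, and a value near or below it is read here as near background, since the table has no detection calls. Icam1, the antigen of the sort, had an intensity of 20.8 ± 10.9 in the sorts titled ICAM1-negative and of 6974 ± 237 in those titled ICAM1-positive (SD, n = 3). This follows the titles, whereas the description field of each sample names the opposite population. All 6 horizontal basal cell genes listed rose and all 5 olfactory neuron genes listed fell. Over the 38694 probe sets tested, the ICAM1-positive sort had the higher intensity in 17.8% and the lower in 19.3%, at an adjusted p under 0.05 (limma on log2 intensities, with litter as a block and Benjamini-Hochberg adjustment), so a call in either direction was common.

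Cd83, Itgax, Ccr7, Cd86, Flt3, Cd209a and Cd80 rose in ICAM1-positive cells by at least 1 probe set. Xcr1 did not pass the test, and Cd207 was below the intensity filter. A probe set was tested when its intensity was above 16 on at least 3 of the 6 arrays. This held for 11 of the 13 probe sets, and one that is bright only in 1 sort passes through that sort. Of the 11 tested, 9 were higher and 0 lower, with the same counts at an unadjusted p under 0.05, beside 17.8% higher among all probe sets. Without the block for litter, limma gave 8 higher and 0 lower, where 16.9% and 18% of all probe sets were called. With litter 1, 2 or 3 left out, 7, 6 and 5 were called higher, beside 2556, 3052 and 3101 of all 38694 probe sets. Calls thus fell across the whole array when a litter was left out. Among the 11 tested, the ICAM1-positive arrays lay wholly above the ICAM1-negative arrays in 10, beside 23.6% of all probe sets tested. Among all 13 this held for 11. In 5 of the 13 the ICAM1-positive intensity exceeded the array median on all 3 arrays, and in another 5 all 6 arrays were below it.

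**Figure D1:**
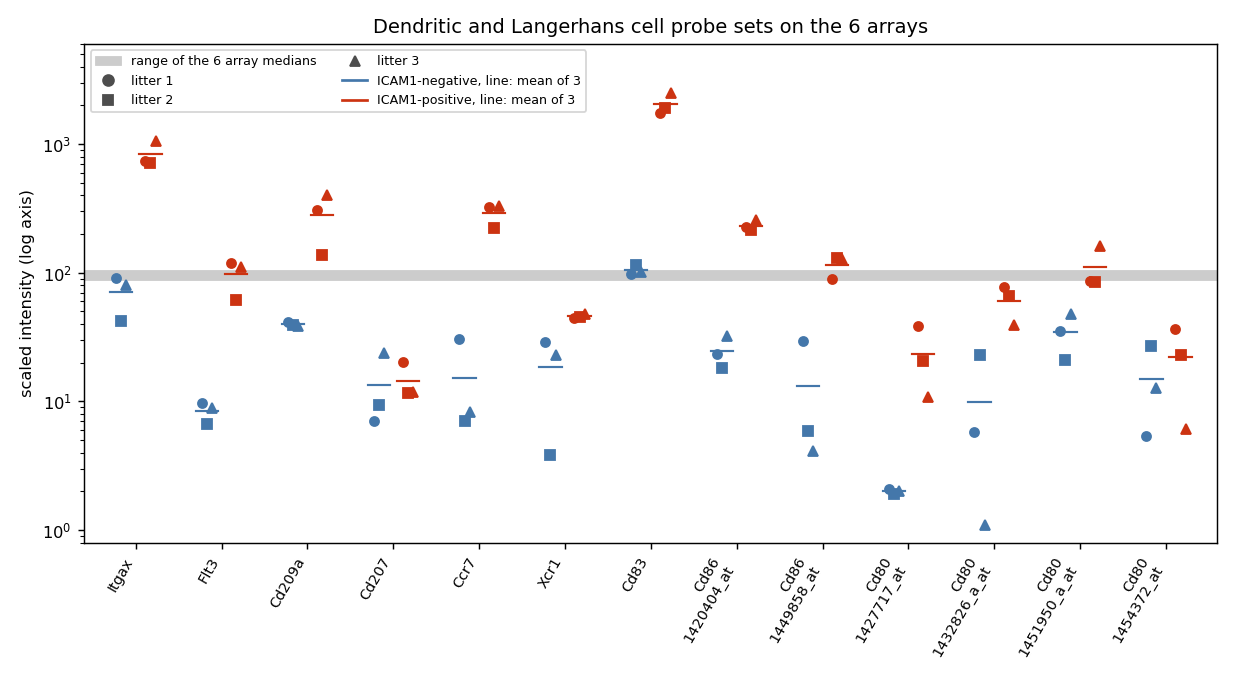
Scaled intensity (log axis) of the 13 probe sets on each array, with ICAM1-negative arrays in blue, ICAM1-positive arrays in red, a symbol for each litter and a line at the mean of 3 arrays. The grey band spans the 6 array medians, from 87.9 to 102.8. Cd83 and Itgax are well above it in ICAM1-positive cells, and Cd207, Xcr1 and 3 of the 4 Cd80 probe sets are below it in both sorts.

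Itgax encodes CD11c, an integrin alpha chain that marks most dendritic cells and also many macrophages. Its intensity was 90.8, 42.5 and 79.8 in the ICAM1-negative sorts of litters 1, 2 and 3 and 739.2, 715.6 and 1049.5 in the ICAM1-positive sorts. All ICAM1-positive arrays were above all ICAM1-negative arrays, and all ICAM1-negative arrays were below the array median. The log2 difference was 3.61 ± 0.26 (SE, adjusted p = 0.00549). Because the dimmer sort was near background, the fold is better given as a bound, with the dimmer intensities raised to the array median, and is then at least 8.52-fold. Itgb2, the beta chain that pairs with Itgax, had intensities of 110.8 ± 26.8 and 743 ± 278 (SD, n = 3; log2 difference 2.70 ± 0.34, adjusted p = 0.0135; 0.0666 without litter 1 and 0.0556 without litter 2).

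Flt3 is the growth factor receptor on which conventional dendritic cell development depends. Its intensity was 9.7, 6.7 and 8.9 in ICAM1-negative cells and 118.3, 61.6 and 111.1 in ICAM1-positive cells. The sorts did not overlap, and the differences within litters were alike, at 3.61, 3.20 and 3.64 on the log2 scale (fitted 3.48 ± 0.16, adjusted p = 0.00406). The ICAM1-positive arrays reached only the range of the array median, and that of litter 2 was below it. With low intensities raised to the median the log2 difference was 0.12 (adjusted p = 0.477), so a size cannot be given.

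The 2 lectin genes differed. Cd209a, the mouse relative of DC-SIGN found on monocyte-derived and type 2 dendritic cells, stood at 41.5, 39.5 and 38.7 in ICAM1-negative cells and 306.4, 137.3 and 404.5 in ICAM1-positive cells. All 3 ICAM1-positive arrays were above the median, with litter 2 the lowest. The log2 difference was 2.69 ± 0.38 (adjusted p = 0.0163), or at least 2.67-fold, and the call was lost without litter 1 (adjusted p = 0.0876) or litter 3 (0.0662). Cd209a has close paralogs, from which its signal may not be separable. Of the 4 paralogs tested, Cd209c (2.52 ± 0.21) and Cd209d (1.70 ± 0.22; adjusted p = 0.0706 without the block and 0.0501 to 0.072 with a litter left out) passed, with intensities near or below the median in both sorts, and Cd209b (1.42 ± 0.70) and Cd209f (0.12 ± 0.23) did not.

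Cd207 encodes langerin, the lectin that forms the granules of Langerhans cells. It stood at 7.0, 9.3 and 23.9 in ICAM1-negative cells and 20.2, 11.6 and 11.8 in ICAM1-positive cells. The sorts overlapped, all 6 arrays were far below the array median, and the probe set was below the intensity filter. Fitted without the filter, the log2 difference was 0.28 ± 0.58 (adjusted p = 0.762), up in litters 1 and 2 and down in litter 3. No Cd207 intensity came near the array median in either sort.

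The chemokine receptor genes also differed. Ccr7, the receptor that guides mature dendritic cells to lymph nodes, stood at 30.5, 7.1 and 8.2 in ICAM1-negative cells and 326.9, 223.9 and 328.7 in ICAM1-positive cells. The sorts were well apart in every litter. The log2 difference was 4.58 ± 0.46 (adjusted p = 0.00882; 0.0587 without litter 2), which is at least 2.99-fold. Xcr1, the receptor of type 1 dendritic cells, stood at 28.8, 3.8 and 22.8 in ICAM1-negative cells and 44.2, 45.7 and 47.5 in ICAM1-positive cells. Its ICAM1-positive arrays were all the higher but below the array median, and the log2 difference of 1.75 ± 0.71 did not pass (adjusted p = 0.145). Xcl1, the ligand of Xcr1, was near background, at 39.9 ± 30.2 and 15.1 ± 1.9 (SD, n = 3; log2 difference -0.89 ± 0.69, adjusted p = 0.38). The Ccr7 ligands Ccl19 and Ccl21a and the Flt3 ligand Flt3l share their probe sets with other genes and were not analysed here.

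Cd83, a surface protein of mature dendritic cells that other activated cells can also make, had the highest intensity of the 13. It stood at 98.3, 115.7 and 101.3 in ICAM1-negative cells, at about the array median, and at 1746.4, 1905.1 and 2517.2 in ICAM1-positive cells. In the latter it exceeded at least 90.3% of all probe sets on each array. The differences within litters were 4.15, 4.04 and 4.64 (fitted 4.28 ± 0.18, adjusted p = 0.00406), and with low intensities raised the difference was 4.25.

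Cd86 and Cd80 encode the B7 proteins, the costimulatory ligands of Cd28 and Ctla4 on T cells. By the brighter probe set of Cd86 (1420404_at) the intensity was 23.2, 18.2 and 32.3 in ICAM1-negative cells and 226.7, 216.7 and 255.1 in ICAM1-positive cells. The groups were well apart and each was narrow (log2 difference 3.28 ± 0.18, adjusted p = 0.00417, at least 2.41-fold). The other Cd86 probe set (1449858_at), which targets the same transcript, stood at 29.3, 5.9 and 4.1 against 89, 130 and 126.8 and had the same direction in all 3 litters. Its difference of 3.67 ± 0.80 passed narrowly (adjusted p = 0.041). The call was lost without litter 2 (0.157), without litter 3 (0.141), with no intensity filter (0.0551) and with low intensities raised to the median (log2 difference 0.30, adjusted p = 0.115).

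The 4 Cd80 probe sets disagreed. The brightest (1451950_a_at) stood at 35.3, 21 and 47.5 in ICAM1-negative cells and 85.8, 84 and 161.6 in ICAM1-positive cells, of which only litter 3 was above the array median. Its log2 difference was 1.68 ± 0.20 (adjusted p = 0.0121; 0.0614 without litter 2 and 0.0707 without litter 3), and 0.23 with low intensities raised (adjusted p = 0.38). A second (1432826_a_at) was below the median on all 6 arrays, at 5.8, 22.9 and 1.1 against 77.1, 65.4 and 39.4. It passed at the threshold (3.47 ± 0.81, adjusted p = 0.0479), but not without the block (0.052), with no intensity filter (0.0633), without litter 1 (0.169) or without litter 3 (0.125). The third (1454372_at) is annotated to the same source sequence as the second, though its probes may differ. It had 5.4, 26.9 and 12.7 against 36.8, 23 and 6.1, with overlapping sorts and no call (0.49 ± 0.89, adjusted p = 0.697). The last (1427717_at) was below the filter, at 2.1, 1.9 and 2 against 38.7, 20.7 and 10.9, and passed when fitted without it (3.37 ± 0.42, adjusted p = 0.0183). Cd80 was thus near or below the array median in ICAM1-positive cells by every probe set. Cd28, a receptor of both B7 proteins, was near background in both sorts (24.1 ± 7.86 and 31.4 ± 2.22; SD, n = 3).

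**Figure D2:**
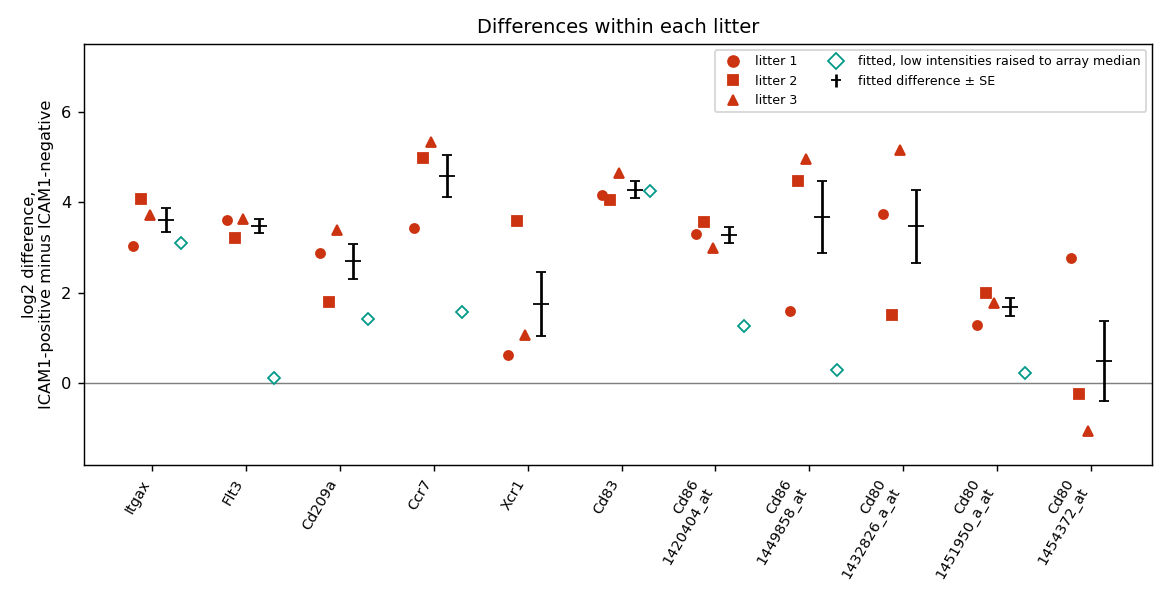
Log2 difference, ICAM1-positive minus ICAM1-negative, within each litter (red symbols) for the 11 probe sets tested, with the fitted difference and its SE in black. Open diamonds are the fitted difference after intensities below the array median were raised to it, and are left out where all 6 arrays are below it. The diamonds of Cd83 (4.25) and Itgax (3.09) stay near the fitted value, and that of Flt3 falls to 0.12.

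With low intensities set to the median of their array, 5 of the genes kept their calls, namely Itgax, Cd83, Ccr7, Cd209a and the brighter probe set of Cd86, beside 27.4% of the 27391 probe sets then tested that were higher. Among the ICAM1-positive arrays, litter 2 was the lowest for 7 of the 13 probe sets and litter 3 the highest for 7. Litter 2 was also the lowest for 1468 of the 3501 genes called higher, against 1068 for litter 1 and 965 for litter 3, and its ICAM1-positive array had the lowest median, 87.9. The sum of intensities over the 8 genes tested, each by its brightest probe set, was 3594, 3390 and 4875 in the ICAM1-positive sorts of litters 1, 2 and 3 and 254.5 to 358.1 in the ICAM1-negative sorts. Summed MHC class II intensities, 25260, 22010 and 35180, were also lowest in litter 2 and highest in litter 3. The same order held for macrophage genes (29200, 29130 and 34520) and for type 2 and monocyte-derived dendritic cell genes (4419, 4286 and 5624). Some lists ran differently. Mature dendritic cell genes had sums of 5960, 6564 and 5357, highest in litter 2. Type 1 dendritic cell genes had 14440, 19500 and 15160, also highest in litter 2. In the ICAM1-negative sorts the sums of the mature and type 1 lists were 5706 to 6229 and 12020 to 13770. Genes bright in both sorts, such as Fscn1 and Id2, thus weigh heavily in these sums.

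Each probe set that was called higher was set beside all other genes for the likeness of its profile over the 6 arrays, as the root mean square distance between log2 intensities centred on their mean. Nearest to Itgax were Amotl1 (0.155), Hey1 (0.19) and Pkp3 (0.207), and nearest to Flt3 were Large2 (0.155), Klf6 (0.162) and S100a14 (0.177). Nearest to Cd209a were Itgb2 (0.229), Slc25a42 (0.235) and the cytokine receptor gene Csf2rb (0.252). The distances are log2 units over 6 arrays, and most of each profile is the step between the sorts.

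Other genes of dendritic cells were followed by subtype, each gene by its brightest probe set. Among all 16399 genes tested, 21.3% were higher and 22.2% lower, with a median log2 difference of -0.06. In list medians with low intensities raised, a gene below the array median on all 6 arrays was entered as 0. Of the 9 genes of type 2 and monocyte-derived dendritic cells tested, 9 rose and 0 fell, with the same counts at an unadjusted p under 0.05 (median 3.22, or 1.43 with low intensities raised). The lectin gene Clec10a rose from 6.47 ± 1.15 to 259.5 ± 9.39 (SD, n = 3; 5.34 ± 0.15, adjusted p = 0.00406, at least 2.69-fold). Clec7a, the beta-glucan receptor, rose by 3.61 ± 0.28, and Sirpa, a signal-regulatory surface protein, by 3.47 ± 0.19, both from above the array median on all 3 ICAM1-negative arrays. Clec4a2 rose by 3.62 ± 0.41 but not without litter 1 (adjusted p = 0.059) or litter 2 (0.05). With litter 1, 2 or 3 left out, 5, 5 and 6 of the 9 were called. Macrophages also make several of these genes, Clec7a and Sirpa among them.

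Of the 12 genes of type 1 dendritic cells tested, 5 rose and 3 fell (median 0.64). With litter 1, 2 or 3 left out, 4, 3 and 4 were called higher and 0, 2 and 0 lower. Wdfy4, needed for cross-presentation, rose from 16.9 ± 7.3 to 411.7 ± 69.6 (SD, n = 3; 4.68 ± 0.35, adjusted p = 0.0057, at least 4.23-fold). Irf8, a transcription factor of this lineage and of monocytes, rose by 3.55 ± 0.24 (at least 5.74-fold), and Itgae, the CD103 integrin chain, by 3.45 ± 0.34 (at least 7.15-fold, with an adjusted p of 0.0587 when litter 2 was left out). Zbtb46, a transcription factor of conventional dendritic cells, fell from 634.3 ± 153 to 135 ± 24.7 (-2.22 ± 0.29, adjusted p = 0.0139; 0.0651 without litter 1 and 0.0775 without litter 3). Snx22 (-1.64 ± 0.21) and Naaa (-0.80 ± 0.13) fell too, and neither was called with a litter left out. Ly75, the receptor DEC-205, rose by 1.84 ± 0.13 and Id2, a transcriptional inhibitor, by 1.03 ± 0.15, but neither without the block (adjusted p = 0.053 and 0.113). Batf3, required for type 1 cells, was below the median on all 6 arrays and did not pass (0.25 ± 0.48, adjusted p = 0.715). Id2, which lost its call without any 1 litter too, was the brightest of this list in ICAM1-positive cells (7321 ± 2620, against 3725 ± 1880 in ICAM1-negative cells; SD, n = 3), and 7 of the 12 genes were above the median on all ICAM1-negative arrays.

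Genes of mature, migrating dendritic cells had 7 of 10 higher and 1 lower (median 1.80, or 0.36 with low intensities raised), and 5, 2 and 3 higher without litters 1, 2 and 3. The gene that fell was Socs2, a cytokine signalling inhibitor (-1.45 ± 0.13; adjusted p = 0.0569 without litter 1). Ccl22, a chemokine that attracts T cells, rose from 7.7, 4.4 and 8.1 to 1013.6, 434.9 and 718.6 (6.71 ± 0.18, adjusted p = 0.00406, at least 7.06-fold). Ccl17, which shares its receptor, rose by 4.92 ± 0.91 (at least 4.57-fold). Its adjusted p was 0.0845 when litter 2 was left out and 0.0902 when litter 3 was. Il12b and Ccl5 passed as well, with intensities near or below the array median in ICAM1-positive cells, Il12b not without litter 2 (0.111) or litter 3 (0.148). Fscn1, an actin-bundling protein of mature dendritic cells, was at 2089 ± 417 in ICAM1-negative cells and missed the threshold (0.29 ± 0.19, adjusted p = 0.308).

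Of the 8 plasmacytoid dendritic cell genes tested, 0 rose and 1, the endocytic adaptor gene Pacsin1, fell (limma, 1 higher and 3 lower at an unadjusted p under 0.05; 1 higher and 1 lower without the block). Pacsin1 fell by 2.66 ± 0.29 (adjusted p = 0.0103; 0.057 without litter 1 and 0.0643 without litter 2), and it is also a gene of neurons. Siglech, the lectin that marks these cells in mice, was below the array median in both sorts. Tcf4, the brightest of the list in ICAM1-positive cells (4086 ± 728; SD, n = 3), did not pass (0.37 ± 0.16, limma, adjusted p = 0.158). Of 8 Langerhans cell genes that epithelial cells also make, 4 rose and 1 fell, beside 2, 2 and 3 that rose and 0, 0 and 1 that fell without litters 1, 2 and 3. The gene that fell with all litters was Tgfbr1 (-0.76 ± 0.13, adjusted p = 0.0258), not called with any litter left out. The one called lower without litter 3 was Cd24a (adjusted p = 0.0488), which missed the threshold with all litters (-1.36 ± 0.37, adjusted p = 0.0643) and passed without the block (0.018). The genes that rose were led by the receptor genes Axl (5.17 ± 0.44, at least 11.9-fold) and Tgfbr2 (4.92 ± 0.26). Runx3 (2.63 ± 0.53) rose too but stayed near or below the array median and was not called with any litter left out. Cdh1, the brightest of the list in ICAM1-positive cells (5649 ± 1200; SD, n = 3), rose by 1.5 ± 0.14. It lost its call without litter 1 (limma, adjusted p = 0.0563) or litter 2 (0.0501). Epcam was at 7918 ± 1330 and 5533 ± 193 and missed the threshold (adjusted p = 0.105). Of 9 other costimulatory ligand genes 3 rose and 0 fell, with 4 and 0 at an unadjusted p under 0.05 by limma and 3 and 0 without the block. They were Tnfsf9 (at least 2.17-fold), Icosl (at least 3.05-fold) and Cd48 (at least 1.38-fold), each of which lost its call without litter 1 (adjusted p = 0.0508, 0.059 and 0.134). Tnfsf9 lost it without litter 2 as well (0.0721), and Cd48 without litter 2 (0.0612) or litter 3 (0.0747). Cd40 did not pass (1.84 ± 0.67, adjusted p = 0.119).

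Macrophage genes rose in the same arrays. Of 21 tested 16 rose and 1, Lgmn, fell (median 3.0, or 2.06 with low intensities raised). Lgmn, a lysosomal protease gene, was not called without the block (adjusted p = 0.119) or with a litter left out (0.109 to 0.202). Beside these stood 7 higher and 0 lower of the 8 dendritic and Langerhans cell genes by their brightest probe sets (median 3.38, or 1.34 raised, with Xcr1 entered as 0). Csf1r, the macrophage growth factor receptor, rose from 169.3 ± 39.4 to 4583 ± 1160 (SD, n = 3), a log2 difference of 4.75 ± 0.14 (adjusted p = 0.00406). The complement genes C1qa and C1qc rose by no less than 8.86-fold and 5.21-fold. Adgre1 rose by 3 ± 0.13 (limma, adjusted p = 0.00406), Fcgr1 by at least 1.93-fold and Mertk by at least 2.49-fold. Fcgr1 lost its call without litter 2 (adjusted p = 0.0503) or litter 3 (0.0537). Mertk lost its call without litter 1 (0.0966) or litter 2 (0.0604). Vsig4, Timd4, Folr2 and Itgam, further macrophage markers, were below the median on all 6 arrays. The sum over the list was 5831 to 6259 in ICAM1-negative cells and 29130 to 34520 in ICAM1-positive cells. A difference between the lists was not tested. The part of macrophages in the rise of Itgax, Cd86, Cd83 and the other shared genes was not tested either.

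MHC class II genes, which both cell types use to present antigen, rose in 8 of 8 (5 with any 1 litter left out), with Cd74 at 7622.8, 4025.2 and 10273.7 in ICAM1-positive cells against 174.8, 176 and 193. Of 10 genes common to leukocytes 6 rose and 0 fell (8 and 0 at an unadjusted p under 0.05 by limma; 7 and 0 without the block; 2 higher without litter 1). None of the T and natural killer cell genes (0 of 4), B cell genes (0 of 4) or neutrophil genes (0 of 8) tested rose by limma, with or without the block or at an unadjusted p under 0.05. Of these lists 1, 1 and 4 genes fell, namely Gzma, Ms4a1 and, among neutrophil genes, S100a8, S100a9, Ngp and Cxcr2. Cxcr2 was below the array median on all 6 arrays. Ms4a1 lost its call with low intensities raised (log2 difference -0.5, limma, adjusted p = 0.116). Only Ngp and Cxcr2 of the neutrophil genes passed without the block. Of the whole neutrophil list, 1, 0 and 2 genes were called lower without litters 1, 2 and 3. Gzma was not called without litter 1 (adjusted p = 0.0532) or litter 2 (0.0597). Of 4 endothelial genes 0 passed in either direction, with or without the block or at an unadjusted p under 0.05 by limma. All 4, and 3 of the 4 T and natural killer cell genes tested, were below the array median on all 6 arrays.

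**Figure D3:**
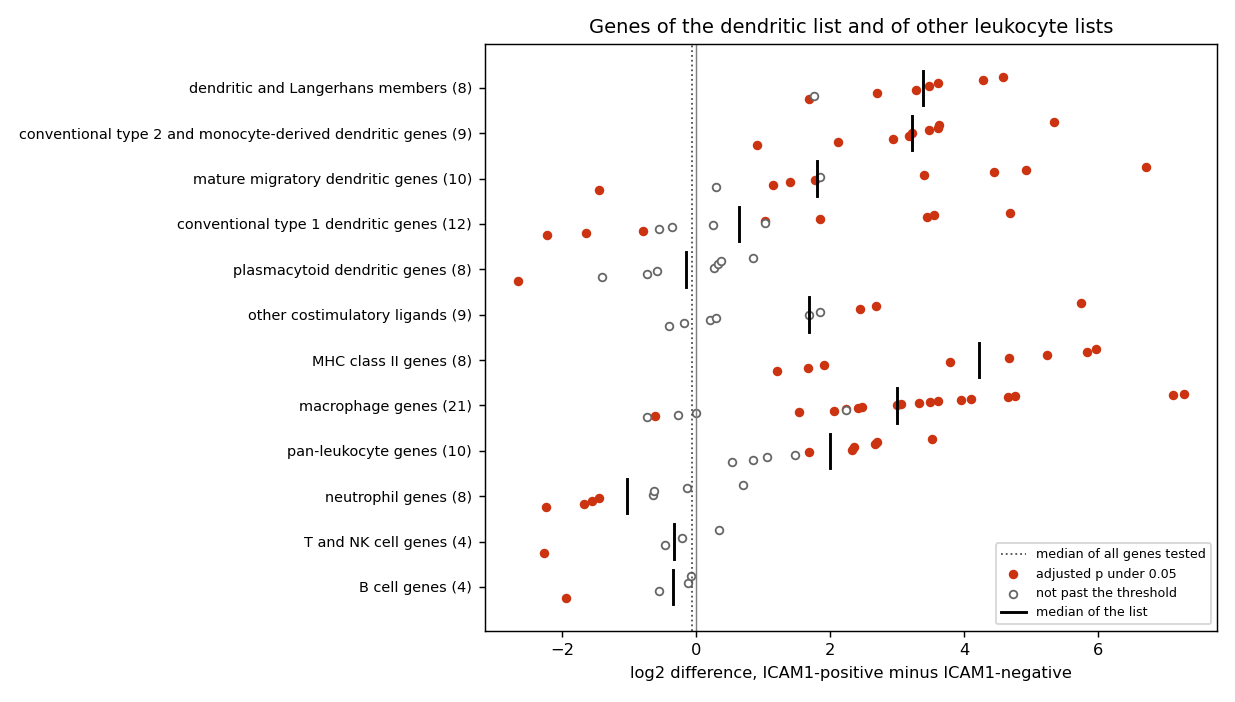
Log2 difference, ICAM1-positive minus ICAM1-negative, of each tested gene of the dendritic and Langerhans cell genes (named members) and of other dendritic and leukocyte lists, with the number of genes tested in parentheses. Filled points passed the threshold, black bars are list medians and the dotted line is the median of all genes (-0.06). The medians of the dendritic and Langerhans cell genes (3.38) and of the macrophage genes (3.0) are both to the right of it. Those of the plasmacytoid dendritic (-0.16), neutrophil, T cell and B cell lists are to the left.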

How the data were processed

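The authors deposited 1 table of linear intensities for 45101 probe sets on 6 arrays. Per the submitters' processing notes they were made with GCRMA, but the mean after trimming 2% at each end was 500 on every array and the quantiles differed, so they were treated as scaled linear intensities. Which program made them, and with what background correction, is not given in the sources used here. Per the labels' protocols, RNA was amplified in 2 rounds.

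Groups came from the sample titles. After removal of 64 control probe sets, those were tested that had a log2 intensity above 4 on at least 3 arrays, 38694 in all. Differences were fitted on log2 intensities with limma 3.58.1 in R 4.3.3 (lmFit, eBayes without a trend), with litter as a block, since each litter gave both sorts, and adjusted by Benjamini-Hochberg. Deviations from the group means of the 2 sorts of a litter correlated at 0.127, 0.199 and 0.081. On simulated data for this comparison the fit recovered 58% of log2 differences of 1 and 92% of differences of 2 among 38694 probe sets. It recovered 100% of differences of 3 and 96% of differences of 4, and called 2.57% of the unchanged probe sets.

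Gene names came from the platform annotation, and promoter sequences from RefSeq (GRCm38.p6). A gene of a list was taken by its kept probe set of highest mean. Every probe set of the members was named, and of each other list up to 4 genes past the threshold with the largest differences and the brightest; of lists outside dendritic cells fewer are printed. Bounds raise the dimmer sort to the array median and carry no error. Members and lists were chosen with earlier results of these data known. Alternatives left out the block or a litter, or changed the filter, floor, pseudocount, normalization, trend or probe set rule. Precision is limited by the number of arrays.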

Additional observations from a re-analysis of the deposited data

How the results depend on the processing

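Of the 13 probe sets, 9 were called higher, and between 5 and 10 under the alternatives. The count was 5 when low intensities were set to the array median and 5 to 7 when a litter was left out. Without the replicate block it was 8, and over all probe sets the counts were 6528 higher and 6984 lower, against 6899 and 7476 with it. The block changed the call of 1 of the 11 probe sets tested, Cd80 1432826_a_at (3.47, adjusted p = 0.052 without it), and of 8 of 94 called genes of the lists. With low intensities raised, Flt3 (0.12), Cd86 1449858_at (0.30) and Cd80 1451950_a_at (0.23) lost their calls. With no filter, Cd86 1449858_at (3.67) and Cd80 1432826_a_at (3.47) lost theirs, and the cause was not tested. With a pseudocount of 32, Xcr1 passed (0.66, adjusted p = 0.0386). Leaving out a litter gave differences from 4.20 to 5.15 for Ccr7, 2.34 to 3.13 for Cd209a, 3.03 to 4.71 for Cd86 1449858_at, 2.62 to 4.45 for Cd80 1432826_a_at and 1.52 to 1.88 for Cd80 1451950_a_at. Each of these lost its call in at least 1 case, with 2 litters remaining. Over all probe sets the higher calls then fell to between 2556 and 3101. Itgax, Cd83 and the brighter Cd86 probe set kept direction and call under every alternative that was run. The macrophage count of 16 higher ranged from 11 to 16. Of 407 other list counts, 79 moved by over 1.5 times or to or from 0, 39 of them with a litter left out. Raised intensities could not be fitted for probe sets below the median on all 6 arrays, and their genes entered the raised list medians as 0. Signals near background limit Flt3, Cd80, Xcr1 and Cd207.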
